A study of Homo sapiens with 14 samples.

Results

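The Ser5-phosphorylated form of RNA polymerase II was compared at gene starts between cells given Nutlin3a and cells given the solvent DMSO. The comparison used 6 of the 14 libraries of the series, the 3 Nutlin3a and the 3 DMSO immunoprecipitations, taken as 3 pairs, and the Nutlin3a effect was averaged over the pairs. The cells were wild-type HCT116, an established human colorectal carcinoma line, so all values describe 1 line at 1 dose and 1 time. Every sample was electroporated, without peptide in pairs 1 and 2 (replicates 1 and 2) and with a bivalent stapled peptide at 10 µM in the third pair (peptide replicate 2), whose cells also had 200 nM peptide in the medium. Per the series title, that peptide is directed against the binding of p53 to Mediator, a large coactivator that bridges DNA-bound factors and the polymerase. Each pair held 1 library of cells kept for 3 h in 0.1% DMSO and 1 of cells kept for 3 h in 10 µM Nutlin3a. The chromatin was precipitated with antibody 3E8 and sequenced (ChIP-seq). The 8 inputs, chromatin sequenced without precipitation, served as background. The sources used here do not say whether the replicates were separate cultures, and if they were not, the p-values measure technical spread only.

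As background, p53 is a transcription factor that MDM2, a ubiquitin ligase and itself a p53 target, binds and marks for degradation. Nutlin3a occupies the pocket of MDM2 that holds p53, so p53 accumulates and activates genes of cell cycle arrest, cell death, DNA repair and metabolism without DNA damage. The Ser5-phosphorylated form of the polymerase is found mainly at promoters and early in genes, where it has begun transcription or is paused. The measurement is therefore of polymerase near the gene start, not of RNA.

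Total counts in the windows were 2186520, 1952467 and 1775860 for the DMSO libraries of pairs 1, 2 and the peptide pair, and 1290223, 1634929 and 2240951 for the Nutlin3a libraries. Inputs held 161719 to 359276 counts. Both libraries of pair 1 stood apart from the others at small RNA genes, as given below, and the Nutlin3a library of pair 1 had 0.122% of its counts in mitochondrial windows against 0.00948% to 0.0295% elsewhere. Summed over 14 colon epithelial markers, the level was 1336 to 1644 CPM (counts scaled to library size) with DMSO and 1380 to 1518 CPM with Nutlin3a. The inputs were at 470 to 849 CPM, and 6 of the 14 markers were at least 2 times their input level. Levels within this list were uneven, with KRT19 at 245 to 356 CPM over the 6 libraries and CDX2 at 26.1 to 36.7 CPM. VIL1 (3.93 to 12.4 CPM), CDX1 (2.95 to 9.72 CPM) and LGALS4 (3.93 to 9.72 CPM) were low, so the sum says little about these members. Summed markers of blood cells (7 genes, 31.5 to 68.9 CPM), mesenchyme (7 genes, 28.5 to 85.1 CPM) and other tissues (10 genes, 33.4 to 77.0 CPM) were lower, over shorter lists. Their inputs were at 37.2 to 112, 97.6 to 213 and 131 to 287 CPM, and in each list 1 gene was at least 2 times its input level. No marker of any list was at 0 in all 6 libraries.

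Nutlin3a raised polymerase signal at a small set of promoters, led by known p53 targets. Signal rose at CDKN1A, the gene of the cell cycle inhibitor p21 (3.05-fold), at SESN1, a sestrin that restrains mTORC1 (3.13-fold), at BBC3, which encodes the death factor PUMA (2.86-fold), at FAS, a death receptor (2.77-fold), and at MDM2 (1.80-fold). Of 21550 tested windows of 1000 bp, 1 per gene, 55 were higher (0.255%) and 7 lower (0.0325%) by edgeR's quasi-likelihood test with a pair term, at an adjusted p under 0.05. Their log2 fold changes ran from 0.63 to 1.69 (median 1.02) in the higher windows and from −0.76 to −0.66 in the lower ones. The 55 windows lay in 44 loci, joining windows less than 10 kb apart, and the 7 in 5 loci. Before adjustment, 793 higher and 611 lower windows had a p under 0.05. Without the pair term the counts were 19 higher and 0 lower, DESeq2 with the pair term gave 18 and 0, and the authors' scaling constants gave 263 and 0. Leaving out a pair gave 52 higher and 8 lower without pair 1, 38 and 1 without pair 2, and 57 and 0 without the peptide pair. In the inputs, the same paired test over 4 pairs called 0 windows (0%), with 533 at an unadjusted p under 0.05. The inputs held far fewer counts and had wider errors, as at CDKN1A (SE 0.45 against 0.16). This test could therefore miss changes of the size called in the immunoprecipitations. The input pair of peptide replicate 1 has no immunoprecipitated counterpart.

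**Figure D1:**
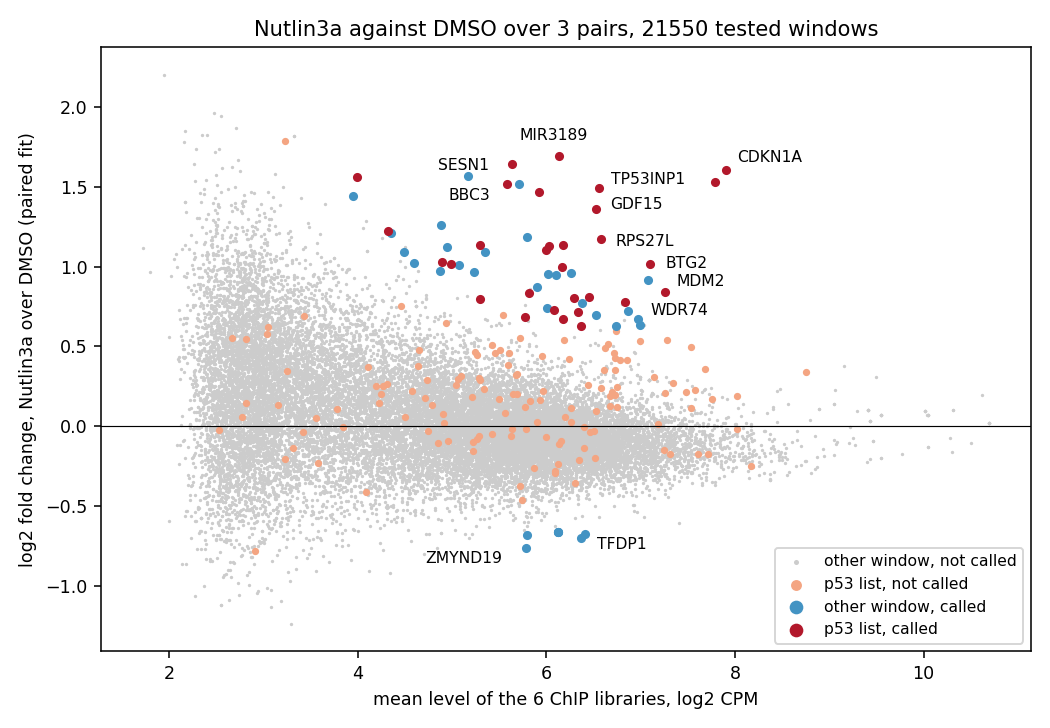
Log2 fold change of Nutlin3a over DMSO from the paired fit (y axis) against the mean level of the 6 ChIP libraries in log2 CPM (x axis), 1 point per tested window. Called windows (red for p53 list genes, blue for others) lie between 0.63 and 1.69 or between −0.76 and −0.66, and the grey cloud tilts from above 0 at low levels to below 0 at high levels.

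Known p53 targets, grouped by role, made up 30 of the 55 higher windows and 0 of the 7 lower ones. The lists were chosen with earlier results of these data known, so the shares below describe their members and are no independent test. Of 180 listed genes, 176 were in the table and 165 passed the filter on low counts, of which 30 were higher (18.2%, against 0.255% of all tested windows). Their median log2 fold change was 0.25, with 124 of 165 above 0, against a median of 0.00 and 50.4% above 0 over all tested windows. The log2 ratio was above 0 in all 3 pairs for 76 of the 165 (46.1%, against 14% of all tested windows) and below 0 in all 3 for 11 (6.67%, against 14.1%). For 58 of them all 3 Nutlin3a levels lay above all 3 DMSO levels (4.87% of all tested windows), and for 2 all lay below (5.15%). The list median was 0.21 in pair 1, 0.29 in pair 2 and 0.34 in the peptide pair. Of the 30 higher members, 13 were called in every alternative processing that tested them, and 17 lost the call in at least 1, all of them in a fit without the pair term and 15 with DESeq2.

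Among the 16 arrest genes tested, 3 were higher and 0 lower, with a median of 0.21. CDKN1A stood at 109, 126 and 115 CPM in the DMSO libraries of pairs 1, 2 and the peptide pair, and at 264, 361 and 462 CPM with Nutlin3a. The groups did not overlap, the lowest Nutlin3a value being in pair 1 and the highest in the peptide pair, and the inputs averaged 53.8 CPM. The log2 fold change was 1.61 ± 0.16 (SE of the paired fit, 3 pairs), with an adjusted p of 3.86e-13 by edgeR's quasi-likelihood test. Every SE given with ± is the log2 fold change over the square root of that test's F. It rests mostly on variance shared across windows and does not measure the spread of a gene's own 3 pairs. For CDKN1A the log2 ratios of the pairs were 1.27, 1.52 and 1.99. The CDKN1A window (hg38, chromosome 6, 36678414 to 36679413) overlaps that of the p53-induced noncoding gene DINOL (1.53), and their reads cannot be separated. BTG2, an antiproliferative gene, was at 91.9, 91.0 and 87.8 CPM with DMSO and at 144, 201 and 207 CPM with Nutlin3a. These groups were apart too, and the fold change was 2.03 (log2 1.02 ± 0.16, adjusted p = 3.30e-06 by edgeR). The BTG2 window overlaps that of LINC01136 (0.92). INKA2, an inhibitor of the kinase PAK4, was the third arrest member, at 0.69, and was called in 6 of the 13 alternatives that tested it. GADD45A, a growth arrest and stress response gene, was at 158, 148 and 154 CPM with DMSO and 185, 208 and 260 CPM with Nutlin3a (0.50 ± 0.15, adjusted p = 0.258), so it did not pass although its groups were apart.

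Of 9 feedback genes, which control p53 itself, 3 were higher, 0 lower, and the median was 0.22. MDM2 was at 105, 100 and 123 CPM with DMSO and at 180, 195 and 214 CPM with Nutlin3a. The 3 pairs moved alike, with log2 ratios of 0.77, 0.95 and 0.80, and the fitted change was 0.84 ± 0.15 (edgeR adjusted p = 0.000226) in a window on chromosome 12 (68807872 to 68808871). The MDM2 call ended without the pair term and without pair 2, where the call for CDKN1A did not. TP53INP1, a p53 cofactor and autophagy gene, was at 42.8, 48.6 and 57.4 CPM with DMSO and at 127, 151 and 140 CPM with Nutlin3a. All 3 Nutlin3a values were more than 2 times every DMSO value, and the log2 fold change was 1.49 ± 0.16. CCNG1, a cyclin that recruits a phosphatase to MDM2, rose from 39.8 to 58.5 CPM with DMSO to 84.4 to 101 CPM with Nutlin3a (1.00). Other regulators did not pass: PPM1D, the phosphatase WIP1, was at 0.25 ± 0.15 with its groups apart, and the p53-induced zinc finger gene ZMAT3 at 0.03 ± 0.16 with overlapping groups.

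In the cell death group 5 of 24 tested genes were higher and 0 lower (median 0.22). BBC3 stood at 22.1, 21.7 and 30.4 CPM with DMSO and 68.1, 64.4 and 80.0 CPM with Nutlin3a (1.52 ± 0.18). FAS stood at 33.4, 27.9 and 35.5 CPM with DMSO and 78.6, 94.7 and 94.4 CPM with Nutlin3a (1.47 ± 0.17). For both genes every Nutlin3a library was above every DMSO library, and the FAS window overlaps that of ACTA2, a smooth muscle actin gene on the opposite strand (1.57). PHLDA3, an inhibitor of AKT signalling, was at 35.4, 50.7 and 49.5 CPM with DMSO and at 79.4, 115 and 104 CPM with Nutlin3a (1.14 ± 0.16). TNFRSF10C, a decoy receptor for the death ligand TRAIL, was at 1.02 ± 0.22 with DMSO levels of only 14.7 to 28.7 CPM, and TP53I3, an oxidoreductase, at 0.67. The TRAIL death receptor gene TNFRSF10B was at 0.54 and did not pass (adjusted p = 0.17 by edgeR), while LOC286059, whose window overlaps it, did (0.96). BAX, which permeabilises mitochondria, was at 87.0, 90.0 and 69.8 CPM with DMSO and 95.6, 127 and 123 CPM with Nutlin3a. Its groups were apart by a small margin in pair 1, and its change of 0.49 ± 0.16 did not pass (adjusted p = 0.29 by edgeR).

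The repair list had 3 of 10 genes higher, 0 lower and a median of 0.24 (−0.14 over windows that overlap no other). None of the 3 was called by DESeq2, without the pair term or without pair 2. DDB2, which binds ultraviolet lesions, rose by 0.80 ± 0.16, from 51.2 to 64.7 CPM with DMSO to 86.2 to 113 CPM with Nutlin3a. REV3L, the catalytic subunit of a translesion polymerase, rose by 0.78 ± 0.15 in a window that overlaps TRAF3IP2-AS1 (0.64), and XPC, a damage sensor, by 0.63 ± 0.16 (adjusted p = 0.039 by edgeR). XPC had the smallest change of the higher windows, with 81.6 CPM as its highest DMSO value and 93.5 CPM as its lowest Nutlin3a value. The translesion polymerase gene POLH was at 0.20 ± 0.15 and did not pass.

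Metabolic and autophagy targets had 5 of 24 higher, 0 lower and a median of 0.20. SESN1 stood at 23.1, 18.6 and 30.4 CPM with DMSO and 53.5, 86.9 and 86.3 CPM with Nutlin3a. Its response was smallest in pair 1 (log2 ratio 1.17) and largest in pair 2 (2.16), with 1.65 ± 0.19 over the 3 pairs. The other members that rose, each lost with DESeq2 and without the pair term, were its paralog SESN2 (0.81), the lysosomal autophagy gene DRAM1 (0.73), the hydrolase gene CMBL (1.03) and PANK1, a kinase of coenzyme A synthesis (0.80). PANK1 was the exception in spread, with DMSO at 48.2, 19.1 and 20.8 CPM and Nutlin3a at 61.6, 35.8 and 49.6 CPM, so its groups overlap although each pair rose. FDXR, a mitochondrial reductase, was at 0.54 ± 0.15 (adjusted p = 0.141 by edgeR) with its groups apart, and TIGAR, a regulator of glycolysis, at 0.16 ± 0.16, so neither passed. With DMSO the mean level of several responding genes was below their input mean, as at SESN1 (24.0 against 45.4 CPM), FAS (32.3 against 44.2 CPM) and TP53INP1 (49.6 against 59.7 CPM). Each library is scaled to its own counts, so this ranks windows and measures no absolute enrichment.

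Of 22 surface and secreted targets 1 was higher (median 0.22). This was GDF15, a stress cytokine, at 46.2, 48.1 and 60.8 CPM with DMSO and 120, 122 and 157 CPM with Nutlin3a. The log2 ratios of the pairs were nearly equal (1.36, 1.32 and 1.36), the fold was 2.57, and the inputs averaged 45.1 CPM. Among 47 other targets 5 were higher (median 0.26): RPS27L, a ribosomal protein paralog (1.18 ± 0.16), CYFIP2, an actin regulator (1.14), APOBEC3H, a cytidine deaminase (1.22 ± 0.28), SYTL1, a vesicle traffic gene (0.84), and the stress transcription factor ATF3 (0.72). APOBEC3H also differed in the inputs, by 1.27 ± 0.51 (unadjusted p = 0.0218, adjusted p = 1.00 by edgeR), its DMSO level of 12.1 CPM was below its input mean of 43.7 CPM, and DESeq2 did not call it. CYFIP2, SYTL1 and ATF3 also lost their calls with DESeq2, and all 4 without the pair term. RPS27L had the narrowest spread of these, at 60.9, 63.6 and 52.3 CPM with DMSO and 126, 136 and 136 CPM with Nutlin3a. ATF3 was uneven, with a log2 ratio of 0.20 in pair 1 against 0.91 and 1.00 in the others.

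**Figure D2:**
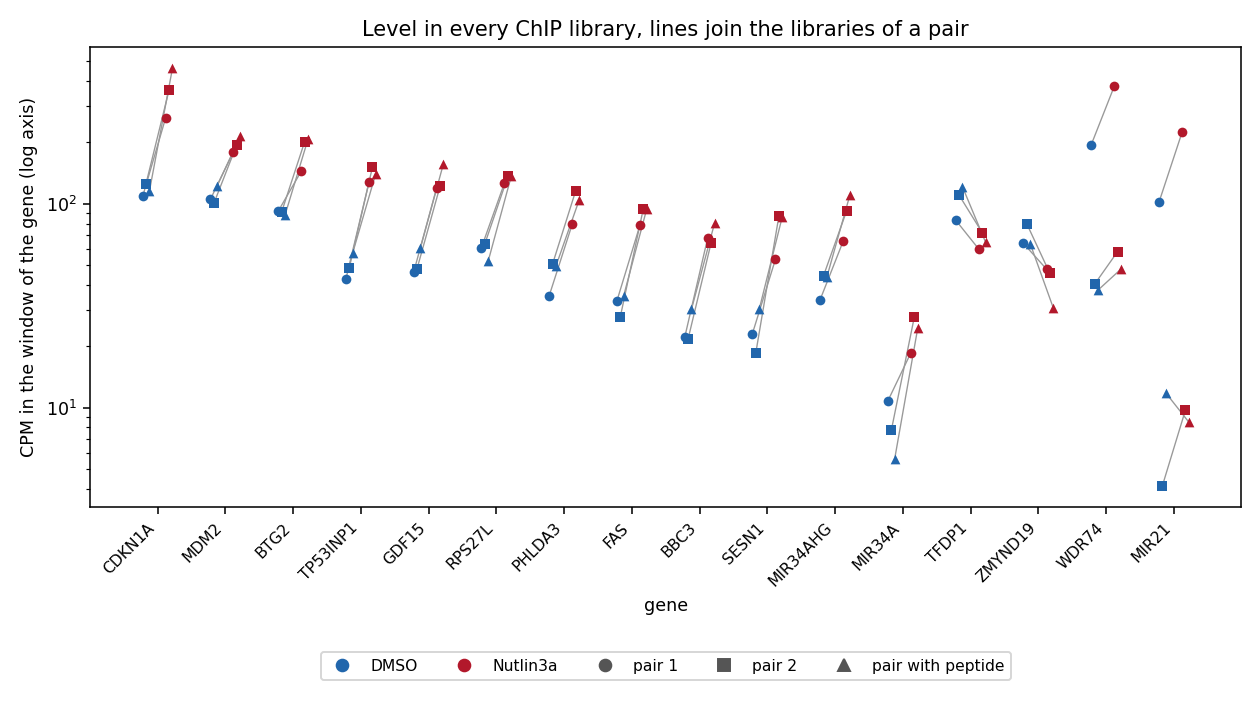
Level of 16 genes in CPM on a log axis in each of the 6 ChIP libraries, blue for DMSO and red for Nutlin3a, with symbols for the pairs and lines joining the libraries of a pair. For the 12 p53 targets from CDKN1A to MIR34A every Nutlin3a point lies above every DMSO point, for TFDP1 and ZMYND19 every one lies below, and for WDR74 and MIR21 the libraries of pair 1 lie far above the rest whatever the treatment.

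Noncoding targets had the highest share of calls, 5 of 13 tested, with a median of 0.62 (0.28 over windows that overlap no other) and 10 of 13 above 0 in all 3 pairs. The 5 were DINOL, MIR34AHG, LNCTAM34A, MIR34A and MIR3189. All but MIR34A overlap another called window, DINOL that of CDKN1A, so the share counts the same reads repeatedly. MIR34A lost its call with DESeq2 and without the pair term. MIR34AHG, the host transcript of the microRNA miR-34a, was at 33.9, 44.5 and 43.9 CPM with DMSO and at 65.6, 92.3 and 111 CPM with Nutlin3a (1.13 ± 0.16). Its window overlaps that of LNCTAM34A (1.10), transcribed the opposite way, and the groups were apart in both. The window of MIR34A itself lies at the hairpin, 30.4 kb from the LNCTAM34A window, and held 10.8, 7.75 and 5.63 CPM with DMSO and 18.6, 27.9 and 24.6 CPM with Nutlin3a. That is a change of 1.56 ± 0.33 (adjusted p = 0.00377 by edgeR) with DMSO levels below the input mean of 17.2 CPM, so the estimate is wide. MIR3189 lies within GDF15, and their windows overlap. It was at 25.6, 31.0 and 42.8 CPM with DMSO and at 103, 89.9 and 128 CPM with Nutlin3a, the largest change among the windows called (1.69 ± 0.17). PANDAR, a noncoding gene upstream of CDKN1A, had a larger estimate (1.79) at 2.25 to 6.39 CPM with DMSO and 12.1 to 19.4 CPM with Nutlin3a, and did not pass (adjusted p = 0.07 by edgeR).

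The mature microRNAs made from the 2 called p53-list hairpins are shown because polymerase rose at their windows. What was measured is polymerase over the DNA, not the microRNA. Sequences are from RefSeq on GRCh38.p14, 5′ to 3′, with the seed (bases 2 to 8), which pairs with target messages, in capitals. The hairpin arms of MIR34A lie at chr1:9151693-9151714 (3p) and chr1:9151735-9151756 (5p) on the minus strand, and those of MIR3189 at chr19:18386570-18386594 (5p) and chr19:18386607-18386627 (3p) on the plus strand.
hsa-miR-34a-5p: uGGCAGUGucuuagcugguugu
hsa-miR-34a-3p: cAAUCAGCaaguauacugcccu
hsa-miR-3189-5p: uGCCCCAUcugugcccuggguagga
hsa-miR-3189-3p: cCCUUGGGucugaugggguag
The 4 seeds differ from one another. As background, miR-34a-5p is known to repress messages of cell cycle and survival proteins.

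Promoters from RefSeq (GRCh38.p14, 250 bases before to 50 after the gene start) were searched on both strands for the p53 response element. This is 2 copies of the p53 half-site consensus of 10 bases each, with a spacer of at most 3 bases, at most 3 mismatches in all and the CNNG core of each copy kept. A match was found in 5 of the 34 higher genes with a promoter in the table (14.7%), in 0 of 3 lower genes, in 18 of 134 tested p53 list genes (13.4%), in 4.80% of tested genes and in 4.72% of all 27305 promoters. The LNCTAM34A promoter held the match with 0 mismatches, at positions −60 to −41 from the start, and is shown whole, with the match in capitals, because both MIR34AHG and LNCTAM34A rose there. It lies at chr1:9181954-9182253 on the plus strand.
LNCTAM34A promoter: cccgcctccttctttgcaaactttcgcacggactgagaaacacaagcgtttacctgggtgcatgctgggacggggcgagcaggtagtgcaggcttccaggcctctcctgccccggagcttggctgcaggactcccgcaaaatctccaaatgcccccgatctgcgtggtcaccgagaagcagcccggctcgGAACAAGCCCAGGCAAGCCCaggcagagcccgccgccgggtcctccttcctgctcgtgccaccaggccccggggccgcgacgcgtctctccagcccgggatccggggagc
The matches in the other 4 promoters are shown for comparison, each read on its gene's strand with any spacer in lower case. They had 3 mismatches at RPS27L (−69 to −50) and GDF15 (28 to 47), and 2 at ACTA2 (9 to 28, in the region shared with FAS) and SYTL1 (−204 to −182).
RPS27L site: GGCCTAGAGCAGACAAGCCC
GDF15 site: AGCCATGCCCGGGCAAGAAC
ACTA2 site: TGGCTTGTCAGGGCTTGTCC
SYTL1 site: TAACTTGCTTtcaAAGCGAGTTC
A match is a description of the letters and not a shown binding site, and promoters with no match may hold an element outside these 300 bases.

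Many of the higher windows outside the p53 lists overlapped the window of a listed gene or lay beside it. Of the 25 higher windows outside the lists, 11 were within 50 kb of a list gene, against 286 of 21385 tested windows outside the lists (1.34%). In all, 32 of the 44 higher loci held or neighboured a list gene. Among the 11, LINC01136, ACTA2, TRAF3IP2-AS1, LOC286059 and LOC102723996 overlap the windows of BTG2, FAS, REV3L, TNFRSF10B and ICOSLG, at 0.023 to 0.803 kb. They share reads with these list genes, so their rise is no separate observation. GRIN2C, an NMDA receptor subunit gene, was at 18.7, 25.8 and 36.6 CPM with DMSO and 48.6, 82.0 and 103 CPM with Nutlin3a. Its window lies 13.1 kb from that of FDXR, and its change of 1.52 ± 0.18 passed where that of FDXR did not. TCTEX1D4, a dynein light chain gene, rose by 0.72 at 6.91 kb from PLK3, a stress kinase gene that was at 0.36. SF3B6, a splicing factor gene near TP53I3, rose by 0.95. The microRNA genes MIR3190 (0.69) and MIR3191 (0.77) near BBC3, whose windows overlap each other, rose with their neighbour. APOBEC3D, a deaminase gene of the cluster that holds APOBEC3H, lay 6.87 kb from the listed APOBEC3C, which was at 0.64 and did not pass. APOBEC3D rose by 1.13 ± 0.22, from 12.3 to 25.8 CPM to 38.1 to 44.3 CPM. The counts cannot tell whether such a window holds polymerase of its own gene or of the neighbour. GRIN2C was called in every alternative that tested it. TCTEX1D4, SF3B6, MIR3190, MIR3191 and APOBEC3D lost their calls with DESeq2, without the pair term and without the peptide pair.

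A further group of higher windows had no listed gene nearby. None of those named here was called by DESeq2 or by the fit with treatment and peptide in place of the pair term. RXRA, MIR4669, ETFBKMT, BTN2A1 and LNCRNA-ATB also lost their calls without pair 1. HELZ, an RNA helicase gene, was at 64.4, 45.5 and 47.3 CPM with DMSO and 95.6, 106 and 102 CPM with Nutlin3a (0.96, with LOC101928021 in the same locus at 0.74). RXRA, a nuclear receptor gene, rose by 1.01 in a window that overlaps MIR4669 (0.97), and DHRS3, a retinal reductase gene, by 0.97. The methyltransferase gene ETFBKMT (1.44 ± 0.34), the butyrophilin gene BTN2A1 (1.02 ± 0.25) and the long noncoding gene LNCRNA-ATB (1.21 ± 0.29) had wide errors and low levels. Their mean with DMSO was 8.23, 16.0 and 11.9 CPM, below input means of 35.2, 53.9 and 72.4 CPM. BTN2A1 moved the opposite way in the inputs, by −1.64 ± 0.56 (unadjusted p = 0.00849 by edgeR).

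Some called windows turned on pair 1. SNORD118, a small nucleolar RNA gene, was at 83.1, 4.65 and 5.06 CPM with DMSO and 230, 6.68 and 3.58 CPM with Nutlin3a. MIR21 was at 102, 4.14 and 11.8 CPM with DMSO and 224, 9.72 and 8.50 CPM with Nutlin3a. In both genes the libraries of pair 1 were many times higher than the rest under either treatment, the groups overlap, and the log2 ratio of the peptide pair was below 0. DLGAP1-AS2 (1.09), SNORD28 (1.26) and WDR74 (0.67), which neighbours a cluster of small nucleolar RNA genes, had the same excess in pair 1. Groups overlapped in 7 of the 55 higher windows, these 5 with PANK1 and LOC101927050, and 52 of the 55 were above 0 in all 3 pairs. The part of the small RNA excess of pair 1 in these calls was not tested.

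The 7 lower windows lay in 5 loci and held no listed p53 target. TFDP1, the dimer partner of the E2F cell cycle factors, was at 83.1, 110 and 121 CPM with DMSO and 60.0, 72.3 and 64.8 CPM with Nutlin3a. The groups were apart, and the change was −0.67 ± 0.16 (adjusted p = 0.0188 by edgeR; inputs −0.99 ± 0.52, unadjusted p = 0.0719) in a window on chromosome 13 (113584453 to 113585452). ZMYND19, a zinc finger gene, was at 63.9, 79.6 and 63.6 CPM with DMSO and 47.8, 45.6 and 30.9 CPM with Nutlin3a (−0.76 ± 0.17, adjusted p = 0.0103 by edgeR). LRRC45, a centrosome gene, was at 66.4, 71.9 and 67.5 CPM with DMSO and 34.0, 53.4 and 41.1 CPM with Nutlin3a (−0.68), in a window that overlaps CENPX. NPB, a neuropeptide gene, fell by 0.70 ± 0.16 on the log2 scale with overlapping groups. MIR6770-1, MIR6770-2 and MIR6770-3 were listed with 1 shared window (−0.66), although RefSeq places their copies at separate sites of chromosome 16, so they count as 1 locus. None of the 7 was called by DESeq2 or without the pair term, and TFDP1 was called in 8 and LRRC45 in 3 of the alternatives that tested them (14 and 13), where CDKN1A and GDF15 were called in 14 of 14. MYC, a growth regulator, was lower in each pair (−0.30 ± 0.16) and did not pass.

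Windows called from 2 pairs were read in the third, which their selection did not use, where they were also among the 21550 tested windows (52 of 52, 34 of 38 and 51 of 57 higher windows with pair 1, pair 2 and the peptide pair left out). Pair 2 and the peptide pair are both labelled replicate 2. Deviations from the treatment means correlated between them at 0.212 and 0.148, against 0.142 and 0.129 within each. Reading either in windows chosen with the other is therefore not a reading in a separate replicate. The 34 read in pair 2 were all above 0 there (median 0.99), and 15 of them were p53 list genes. Of 52 called higher from pair 2 and the peptide pair, 50 were above 0 in pair 1, with a median of 0.70 against 1.00 in the pairs that chose them. The exceptions were CCNC, a Mediator kinase module cyclin outside the p53 lists, and EPS8L2, a p53 list gene. Of the 51 from pairs 1 and 2, 30 were above 0 in the peptide pair and 21 below. All 20 p53 list genes were above 0, with a median of 1.30 against 1.21 in the pairs without peptide. Of the 31 others 10 were, with a median of −0.36. The other 2 readings showed no such split in direction. In pair 1, 34 of 35 list windows and 16 of 17 others were above 0, and in pair 2, 15 of 15 and 19 of 19. Because the lists were chosen with earlier results of these data known, this split by list is a description and no independent test. Those below 0 included the mitochondrial genes RNR1 and RNR2, MIR21, MIR29A and SNORD118. Over all tested windows 49.5% to 50.8% of log2 ratios were above 0 in each pair.

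**Figure D3:**
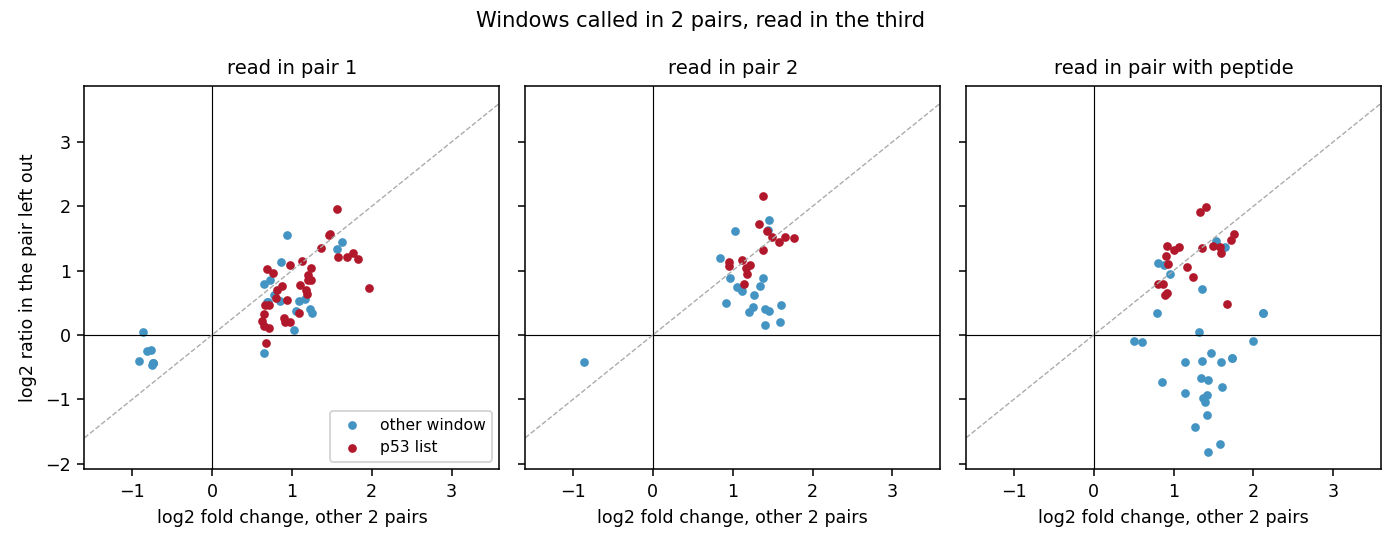
Log2 fold change in the 2 pairs in which a window was called (x axis) against its log2 ratio in the pair left out (y axis), with the dashed line marking equal values. In pair 2 the 34 higher windows shown lie above 0, and in the pair with peptide the 20 p53 list windows (red) lie above 0 while 21 of the 31 others (blue) lie below.

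Because the average is taken over peptide, the difference of the Nutlin3a effect between the peptide pair and the other pairs was tested in the same libraries. The peptide was given in 1 pair only, so the peptide and that pair cannot be told apart. It passed in 16 windows (0.0742%, all lower with peptide), none of them among the 62 called over the 3 pairs. DESeq2 called 1 and the fit without the pair term 0. The 16 included mitochondrial, ribosomal RNA and small RNA windows and a pseudogene, which are named with their values among the results for a closer look. For CDKN1A the difference was 0.59 (95% interval 0.05 to 1.14, adjusted p = 1.00 by edgeR), for MDM2 −0.07 (−0.66 to 0.53), for TP53INP1 −0.31 (−0.99 to 0.36) and for GDF15 0.01 (−0.67 to 0.70). None of these passed over all windows, and the intervals are wide because the peptide pair is 1 library per treatment, assumed to vary like pairs 1 and 2.

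The fold change of all windows depended on their level, which bears on how list medians are read. Tested windows under a mean log2 CPM of 4 had a median of 0.21 (7466 windows), and those of at least 7 had −0.12 (1094 windows). By pair, the low windows were at 0.56, 0.08 and −0.03 and the high ones at −0.26, −0.11 and 0.02 for pairs 1, 2 and the peptide pair, so the tilt was steepest in pair 1. The p53 list lay above all tested windows at every level from 4 up, with medians of 0.35 against −0.08 at 6 to 7 (50 members) and 0.22 against −0.12 at 7 and over (23 members). Below 4 its 20 members had 0.12 against 0.21.

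Other gene groups gave few calls. Over all tested windows 0.255% were higher and 0.0325% lower, so 0 calls in a list of this size says little about its members. Of 38 cell cycle genes that the DREAM complex represses, 0 were higher or lower, with a median of −0.14. The fitted change was above 0 in 8 (21.1%, against 50.4% of all tested windows), and the log2 ratio was above 0 in all 3 pairs in 4 and below 0 in all 3 in 14 (36.8%, against 14.1%). Examples, none past the threshold, were the helicase subunit genes MCM4 (−0.45) and MCM7 (−0.39), the licensing factor CDT1 (−0.39) and E2F1 (−0.40). Their pair medians were −0.24, −0.23 and −0.01. By level, the DREAM median was −0.20 against −0.04 for all tested windows at 5 to 6 log2 CPM (15 members). It was −0.17 against −0.08 at 6 to 7 (15 members), but −0.11 against −0.12 at 7 and over (6 members). The 2 members at 4 to 5 had 0.12 against 0.06. In the bands from 5 up, 20.0%, 6.67% and 33.3% of members were above 0, against 41.1%, 29.2% and 21.6% of all tested windows. With the filter on ChIP over input the DREAM median moved to 0.0017, and that of all windows left was 0.0068. Of 78 ribosomal protein genes 0 were called, with a median of −0.11, and at 7 and over their 54 members had −0.11 against −0.12 for all windows there. Immediate early genes, which growth signals switch on within minutes, had 2 of 31 higher, BTG2 and ATF3, which are also p53 targets, and a median of −0.07. The ATF4 and endoplasmic reticulum stress list had 1 of 22, SESN2, shared with the p53 list, and a median of 0.11. Heat shock (17 genes, −0.01), NF-kB (14, −0.11) and Mediator subunit genes (32, 0.01) had 0 calls in either direction, as did colon epithelial markers (14, 0.01). The blood (4 tested, 0.15), mesenchyme (5, 0.41) and other tissue markers (8, −0.05) also had 0 calls, and the mesenchymal median was 1.45, 0.17 and −0.36 in the 3 pairs, so it rested on pair 1. The authors' scaling constants moved the median of all windows from 0.00 to 0.41 and turned the sign of the DREAM (0.27), ribosomal protein (0.30) and immediate early medians (0.35) and of MYC (0.12), all of which stayed below 0.41.

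**Figure D4:**
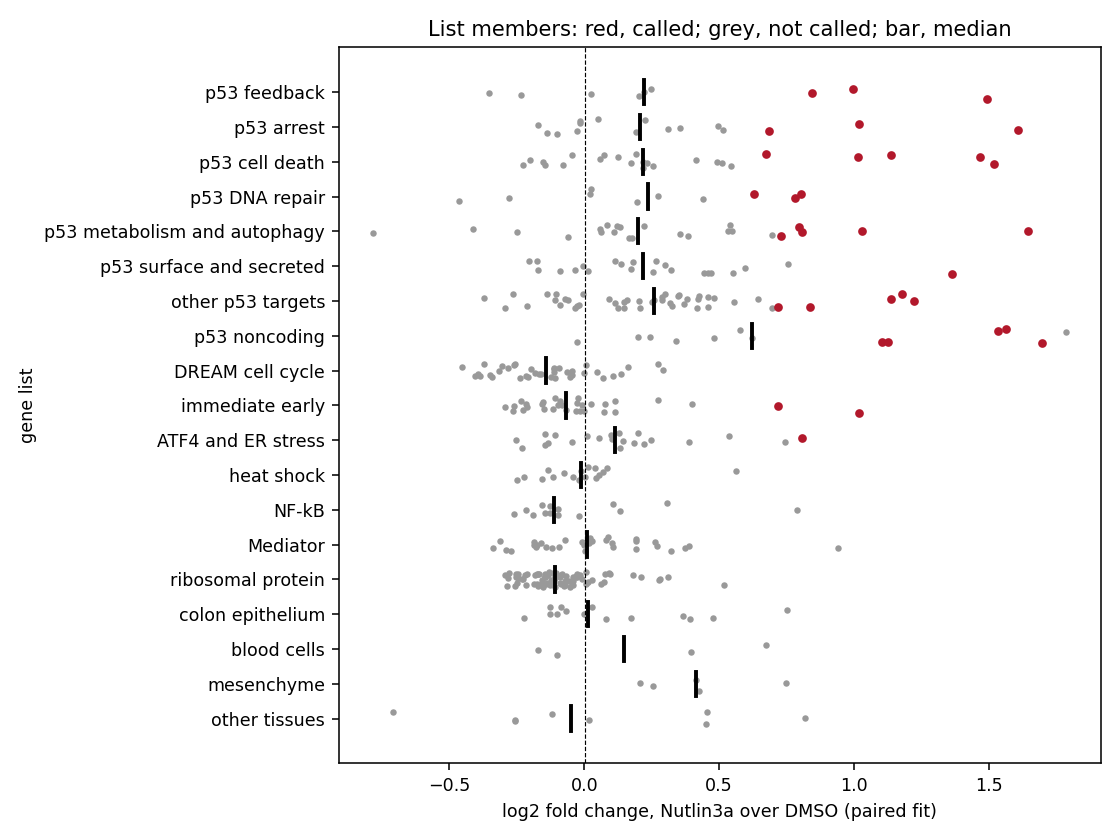
Log2 fold change of each tested member of the gene lists (x axis), with called members in red, others in grey and the list median as a bar. The dashed line is the median of all tested windows (0.00), the 8 p53 lists have medians from 0.20 to 0.62, and the DREAM and ribosomal protein medians lie at −0.14 and −0.11.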

How the data were processed

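The authors deposited raw counts of reads per gene window, and a scaled signal that equals the counts times 1 constant per library (0.595 to 1.82, the last for the Nutlin3a library of pair 1). The submitters' processing notes name hg38 as build. For the aligner, the counter and the origin of the constants, nothing was given in the sources used here; strand-aware counting was not stated. Of 28159 windows, 571 share their exact position with another and 6188 overlap another, so reads there count for both genes. All of the following was computed from the counts.

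Counts were tested with edgeR 4.0.16 (R 4.3.3, quasi-likelihood, legacy=TRUE) with terms for pair and treatment, TMM scaling, filterByExpr (minimum count 10) and Benjamini-Hochberg adjustment over 21550 windows at a threshold of 0.05. There were 2 residual and 111 prior degrees of freedom, and the biological coefficient of variation was 12.4%. Log2 ratios per pair used a prior count of 2. The pairing comes from the labels' protocol, in which electroporated cells were divided between DMSO and Nutlin3a. Deviations from the treatment means correlated within pairs 1, 2 and the peptide pair at 0.358, 0.142 and 0.129. Libraries of pair 2 and of the peptide pair also correlated with each other, at 0.212 and 0.148. In total 97.6% of tested symbols matched RefSeq.

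The members and gene lists were chosen with earlier results of these data known. Genes were named by rule: the 25 higher called genes (and up to 10 lower, here all 7) with the largest change and the same sign in all 3 pairs, called list members, and 22 genes whatever their values (a further gene of the rule is not reported here). Others named were chosen after their values were seen. Alternatives covered the pair term, scaling, filters, DESeq2 1.42.0, limma 3.58.1 and each pair left out. The inputs and the reading of left-out pairs were added after seeing the data.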

Additional observations from a re-analysis of the deposited data

Results flagged for a closer look

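The Nutlin3a effect differed between the peptide pair and the pairs without peptide, by the edgeR interaction test, in 16 windows, and in each it was lower in the peptide pair (log2 difference, with minus without peptide). The peptide pair is 1 library per treatment, so the peptide and the pair cannot be told apart. DESeq2 called 1 of the windows, ROCK1P1, and the fit with no pair term called 0. Mitochondrial windows were RNR1 (−2.37), RNR2 (−2.44) and MIR12136 (−2.69), with LOC101928626 (−2.47) and MTRNR2L8 (−2.42), which hold mitochondrial-like sequence in the nuclear genome. RNR2 was at 75.2, 31.5 and 87.2 CPM with DMSO in pairs 1, 2 and the peptide pair and at 387, 38.3 and 49.2 CPM with Nutlin3a, so the Nutlin3a library of pair 1, which has the highest mitochondrial share (0.122%), was far above the rest. The same windows were higher with Nutlin3a in the inputs before adjustment, at log2 1.96 (RNR1), 1.51 (RNR2), 1.46 (MIR12136), 1.17 (LOC101928626), 1.75 (MTRNR2L8) and 1.49 (ROCK1P1), with unadjusted p from 0.000173 to 0.0274 and an adjusted p of 1.00 by edgeR over 4 input pairs. ROCK1P1, a pseudogene, had −3.32, from 148, 23.8 and 50.1 CPM with DMSO and 370, 73.5 and 13.4 CPM with Nutlin3a.

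Small RNA windows were SNORD12 (−3.96), MIR29A (−2.91) and RNU5F-1 (−1.62). The ribosomal RNA copies RNA45SN3 (−0.88) and RNA45SN1, RNA45SN2, RNA45SN4 and RNA45SN5 (each −0.84, from 1 shared window), and MIR3648-1 and MIR3648-2 (each −0.92, from 1 shared window), are near-identical repeats among which reads cannot be assigned. RNA45SN3 was at 812, 1070 and 1172 CPM with DMSO and 1047, 1367 and 818 CPM with Nutlin3a. The part of library composition in these differences was not tested.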

How the results depend on the processing

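Against 55 higher and 7 lower windows and 30 higher p53 list members, the fit with no replicate block for the pair gave 19, 0 and 14 with treatment alone and 16, 0 and 13 with treatment and peptide as terms. All of these 19 and 16 windows were among the 55. DESeq2 gave 18, 0 and 15, a filter on ChIP of 2 or more times input, which left 1929 windows, 14, 0 and 9, and windows that overlap no other 25, 3 and 17. The authors' constants gave 263, 0 and 55, with the median of all windows at 0.41. Lower windows numbered 3 with total counts, 3 with no filter, 12 with limma-voom and 11 with legacy=FALSE. Inputs in place of ChIP, which held far fewer counts, gave 0, 0 and 0. Leaving out each pair in turn gave 38 to 57 higher and 0 to 8 lower windows, and 15 (without pair 2) to 35 (without pair 1) p53 members. Of the 55 higher windows, 42 were called without pair 1, 30 without pair 2 and 30 without the peptide pair. The difference with peptide was called in 9 windows at a mean count of at least 50, in 1 (ROCK1P1) by DESeq2 and in 0 with no replicate block.

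Of 704 values of the 51 named genes under alternatives, 532 kept their side of the threshold and direction, 151 lost and 13 gained a call, and 8 changed sign, all at genes that were not called. With the authors' constants MYC was at 0.12 and CDC25C, a mitotic phosphatase gene at −0.04, was at 0.37. CDC25C was at 0.0247 with a mean count of at least 50 and at 0.0711 with the filter on ChIP over input, and ZMAT3 at −0.0014 with no filter. Over the left-out pairs CDC25C ran from −0.21 to 0.0515 and ZMAT3 from −0.0953 to 0.16. Of 279 list medians 34 moved beyond their spread, 16 of them with the authors' constants. The cause of these changes was not tested. Depth limits the low windows most: MIR34A, MIR29A and PANDAR had low counts in most libraries, and 1 library per treatment carries the peptide pair.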
